A study of Rattus norvegicus with 12 samples.

Results

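Pan-myeloid genes, a set of genes known to be expressed in macrophages, monocytes, granulocytes or leukocytes at large, were described across rat aortic rings cultured in fibrin or collagen gel with or without TNF-alpha (TNF). Of 37 genes looked up by symbol in the annotation of the array, 34 had a probe set naming 1 gene and were measured, of 14324 genes measured in all. Each of the 34 had a single such probe set. Itgax, C5ar1 and Msr1 had none and are not analysed here. The genes were listed for what they are known for, with earlier results of these data known, and their values are expression in whole cultures, not cell numbers. In such bulk samples, fewer cells of a type and less RNA per cell cannot be told apart.

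The rings came from aortas of male Fisher 344 rats aged 1 to 2 months, with no allele or transgene named, and were kept in serum-free medium until day 2, and each sample pooled 4 to 6 ring cultures. There were 3 arrays in each of 4 groups: fibrin gel with 10 ng/ml recombinant rat TNF (fibrin TNF), fibrin gel without it (fibrin control), collagen gel with 10 ng/ml TNF (collagen TNF) and collagen gel without it (collagen control). A ring holds all layers of the vessel wall with the leukocytes resident in it and has no blood supply, so no cells can arrive from a circulation. The titles call the replicates biological but do not say whether they came from different animals, so the p-values speak only of how far these cultures spread. Groups were taken from the titles, because a tissue label names collagen gels for all 12 samples. The tissue label was checked with smooth muscle and endothelial genes, with Myh11 (smooth muscle myosin) at mean log2 levels of 10.11, 10.33, 10.36 and 10.79 in fibrin TNF, fibrin control, collagen TNF and collagen control, and Cdh5 (VE-cadherin) at 8.17, 8.07, 8.22 and 7.91.

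Macrophages live in the outer layer of arteries, where they take up dying cells and debris. Their lineage is set by transcription factors such as PU.1, the product of Spi1. Activating Fc receptors signal through ITAM adaptor proteins, the complement protein C1q tags targets for uptake, and the phagocyte NADPH oxidase makes superoxide to kill what was taken up. TNF is both made by macrophages and sensed by them.

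Promoters of members that moved together or that held a motif are shown first. RefSeq entries of the rat assembly GRCr8 held a promoter window for 24 of the 34 members, each of 300 bases from 250 before to 50 after the gene's start. The windows were searched on both strands for 3 motifs. GAAANNGAA, the core of the interferon-stimulated response element, was in 5 of the 24 (Lyz2, Ccr2, Adgre1, Ncf1 and Cybb), or 20.8%, against 9.71% of all 33469 promoters. GAGGAAGT, a PU.1 site, was in 1 (Cd53, 4.17% against 2.42%), and GGGNNTTTC, an NF-kB site, was in 2 (S100a9 and Cx3cr1, 8.33% against 4.53%). No member's window held more than 1 of the motifs, and a match is a description of letters, not of binding. Below, the 250 bases before the start are printed along each gene's own strand, with motif matches in capitals. C1qa (chr5:154419934-154420183, minus strand) and C1qb (chr5:154407828-154408077, minus strand), whose levels were lower in fibrin together, held none of the 3 motifs. Cybb (chrX:16065066-16065315, minus strand) and Lyz2 (chr7:54798012-54798261, minus strand), which rose with TNF in collagen, held the interferon motif from 52 and 242 bases before the start. The other holders of this motif were not called with TNF in collagen, with log2 differences of -0.56 for Ccr2, 0.13 for Adgre1 and 0.23 for Ncf1. A link of the motif to the TNF response was not tested.

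C1qa: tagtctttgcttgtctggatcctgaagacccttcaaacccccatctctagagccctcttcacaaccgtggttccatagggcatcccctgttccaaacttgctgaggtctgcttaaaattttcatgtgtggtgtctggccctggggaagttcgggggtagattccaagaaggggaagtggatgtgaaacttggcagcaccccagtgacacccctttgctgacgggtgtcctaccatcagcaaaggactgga

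C1qb: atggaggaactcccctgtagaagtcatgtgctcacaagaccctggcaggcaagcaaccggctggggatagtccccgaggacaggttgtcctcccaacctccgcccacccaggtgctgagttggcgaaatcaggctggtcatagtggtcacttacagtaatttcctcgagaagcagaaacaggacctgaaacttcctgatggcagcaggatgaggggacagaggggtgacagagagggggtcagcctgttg

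Cybb: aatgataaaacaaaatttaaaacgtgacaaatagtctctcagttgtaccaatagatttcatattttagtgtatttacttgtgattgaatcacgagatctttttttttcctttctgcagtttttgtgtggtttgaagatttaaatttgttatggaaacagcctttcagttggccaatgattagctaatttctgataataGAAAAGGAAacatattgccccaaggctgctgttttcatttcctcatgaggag

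Lyz2: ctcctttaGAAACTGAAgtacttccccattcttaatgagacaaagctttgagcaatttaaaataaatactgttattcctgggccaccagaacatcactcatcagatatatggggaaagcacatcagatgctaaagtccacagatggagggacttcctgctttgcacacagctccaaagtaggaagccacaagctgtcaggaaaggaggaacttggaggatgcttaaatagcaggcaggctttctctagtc

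Arrays of a group differed in the members as a set. Collagen TNF replicate 2 was the lowest of its 3 arrays for 26 of 34 members (76.5%), against 36.3% of all genes, and fibrin control replicate 1 was the lowest for 24 (70.6%), against 36.0% of all genes. Mean log2 levels over the 34 members were 7.90, 8.01 and 7.97 on the fibrin TNF arrays, 7.94, 8.02 and 8.10 on the fibrin control arrays, 8.26, 8.08 and 8.28 on the collagen TNF arrays, and 8.13, 8.18 and 8.19 on the collagen control arrays. The group means of these levels were 7.96 ± 0.05, 8.02 ± 0.08, 8.21 ± 0.11 and 8.17 ± 0.03 in the same order (SD, n = 3 each), so arrays of a group spread about as far as the means of the same gel lie apart. All tests are moderated tests of limma over 14324 genes with Benjamini-Hochberg adjustment, called at an adjusted p under 0.05, and differences are on the log2 scale with standard errors of the fit.

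**Figure D1:**
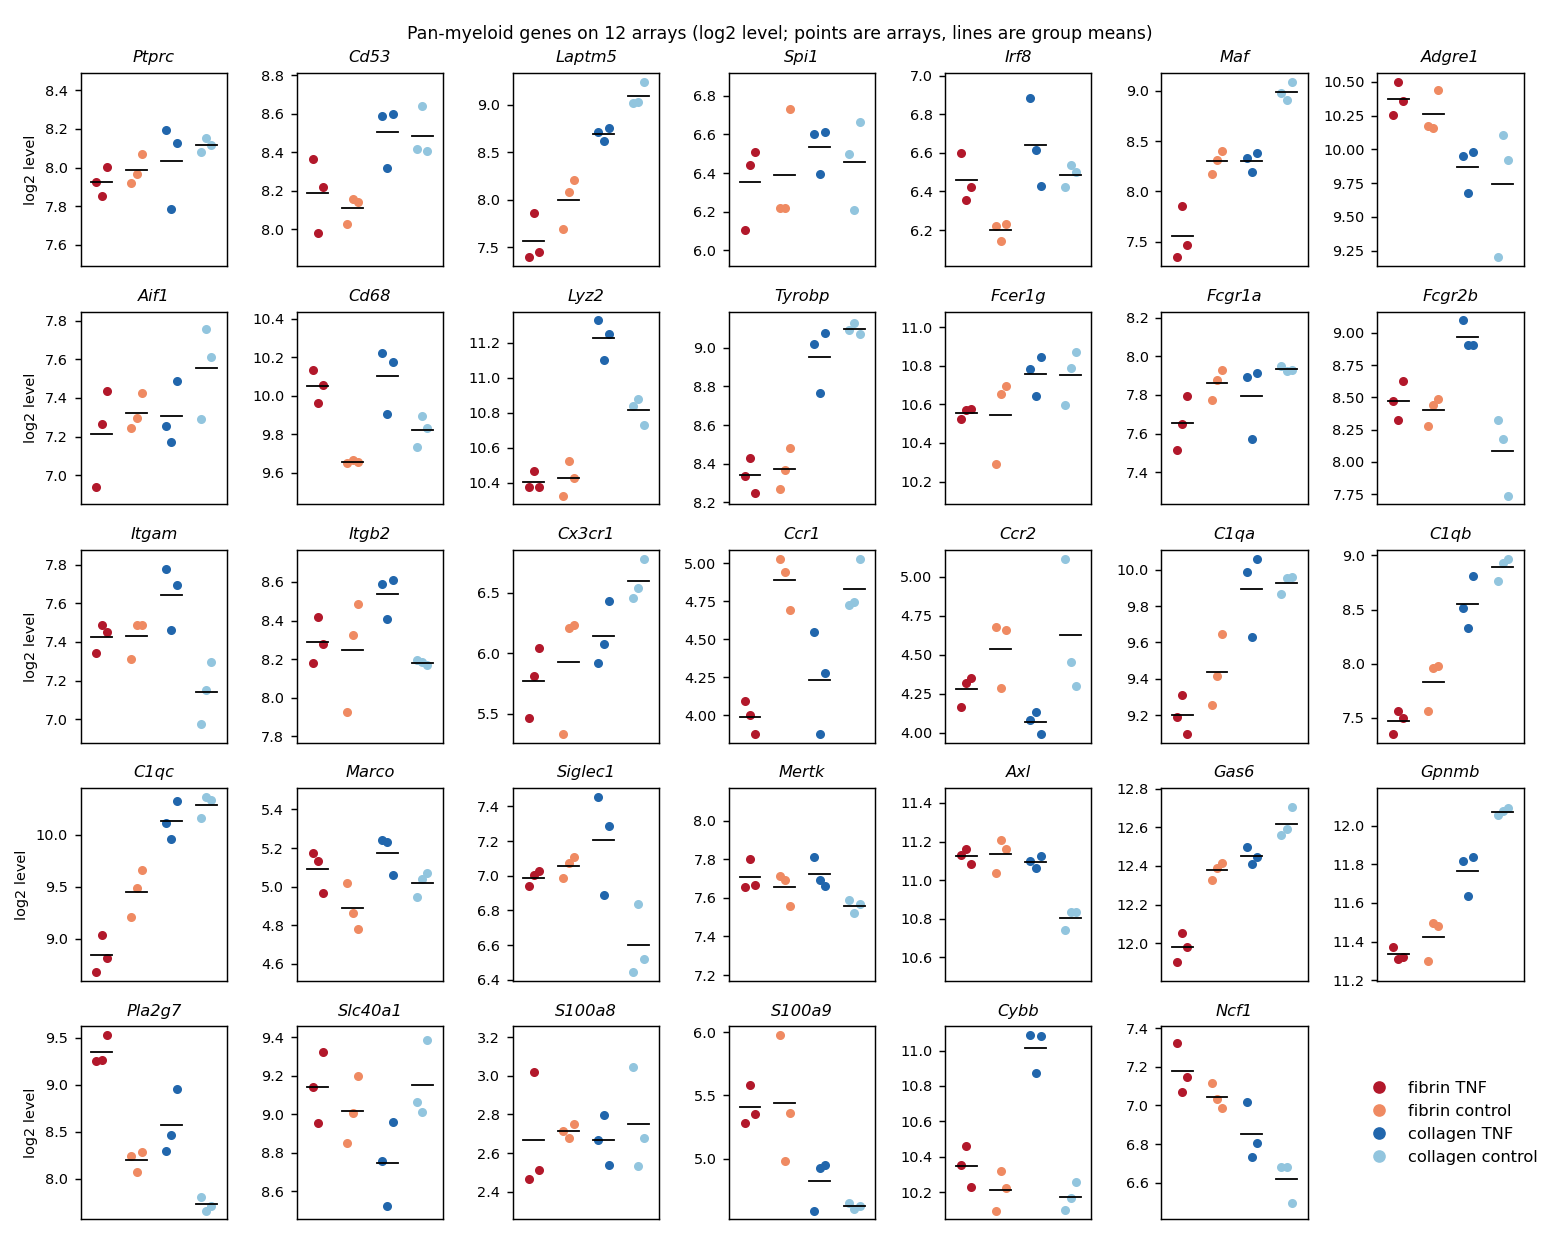
Log2 level of each of the 34 measured pan-myeloid genes (1 panel a gene, vertical axes in log2 units spanning at least 1) on the 12 arrays, where points are arrays, horizontal lines are group means of 3, and the groups run from left to right as fibrin TNF, fibrin control, collagen TNF and collagen control. C1qb, Laptm5, Tyrobp and Gpnmb lie lower on every fibrin array than on every collagen array, Cybb stands out on the 3 collagen TNF arrays, and the groups of Spi1 overlap.

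The largest share of members differed between the gels. Without TNF, C1q subunits, the ITAM adaptor Tyrobp, the lysosomal protein Laptm5, the transcription factor Maf, lysozyme (Lyz2) and Gpnmb were lower in fibrin than in collagen, while S100a9, the oxidase subunit Ncf1, the sialic acid receptor Siglec1 and the receptor Axl were higher. In all, 4 members were higher and 10 lower in fibrin (41.2% called), against 10.5% of all genes called (5.35% higher and 5.19% lower). The median difference of the 34 was -0.13, against -0.01 over all genes. Without fibrin control replicate 1, which was lowest of its group for most members, that median was -0.09, with 3 members higher and 7 lower. Fits without any 1 of the 6 arrays called 10 to 12 members. With TNF in both gels, 2 members were higher and 11 lower in fibrin (38.2%), against 8.19% of all genes called (4.55% higher and 3.64% lower), with medians of -0.21 and -0.00. The arrays of the gels did not overlap for 21 members without TNF (7 higher and 14 lower in fibrin), against 29.3% of all genes, and for 17 with TNF (5 higher and 12 lower), against 27.6%. These comparisons share no array, but they share the fit's estimate of each gene's spread and so are not independent. Of the members called lower, 9 were called in both, which is 90.0% of the list without TNF and 81.8% of the list with TNF. The same overlap over all genes is not given here. Centring each array on its median changed the counts without TNF to 6 higher and 8 lower, beside 1217 higher and 474 lower over all genes in place of 767 and 743. With TNF it left the members at 2 and 11, beside 880 and 387 in place of 652 and 521. The shares of all genes include dim genes. Among the 9549 genes left without the third of lowest mean, 944 were higher and 859 lower in fibrin without TNF, and 822 and 632 with TNF. Of the 29 members among them, 4 were higher and 10 lower without TNF, and 2 and 11 with TNF.

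The 3 genes of C1q, the recognition part of the classical complement pathway, encode the chains of 1 protein and moved together. Without TNF, C1qb lay at 7.56, 7.96 and 7.98 (log2) on the fibrin control arrays, against 8.77, 8.93 and 8.97 on the collagen control arrays. C1qc lay at 9.21, 9.49 and 9.66 on the fibrin control arrays, against 10.16, 10.36 and 10.33 on the collagen control arrays. No fibrin control array reached a collagen control array for either gene, and C1qb was 2.08-fold lower (-1.06 ± 0.13, adjusted p = 1.88e-04) and C1qc 1.78-fold lower (-0.84 ± 0.13, adjusted p = 9.93e-04). C1qa lay at 9.26, 9.41 and 9.65 on the fibrin control arrays, against 9.87, 9.95 and 9.96 on the collagen control arrays (-0.48 ± 0.12, adjusted p = 0.0200). With TNF the differences between fibrin and collagen were -1.29 ± 0.13 for C1qc (2.44-fold lower, adjusted p = 4.39e-05), -1.08 ± 0.13 for C1qb (adjusted p = 2.10e-04) and -0.69 ± 0.12 for C1qa (adjusted p = 0.00288), again with no overlap of the groups.

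Among genes of leukocytes at large, Laptm5, a lysosomal membrane protein of blood cells, was 2.15-fold lower in fibrin without TNF (-1.10 ± 0.14, adjusted p = 2.08e-04). Its levels were 7.69, 8.08 and 8.20 on the fibrin control arrays, against 9.01, 9.03 and 9.24 on the collagen control arrays. With TNF it lay at 7.39, 7.86 and 7.45 on the fibrin TNF arrays, against 8.71, 8.61 and 8.76 on the collagen TNF arrays (-1.13 ± 0.14, adjusted p = 2.29e-04). Every fibrin array was thus below every collagen array. Ptprc, which encodes CD45, the surface phosphatase of all leukocytes, did not pass, with a difference of -0.13 ± 0.10 without TNF (95% confidence interval -0.34 to 0.08, adjusted p = 0.460) and -0.11 ± 0.10 with TNF (-0.32 to 0.10, adjusted p = 0.579). Without TNF, Ptprc lay at 7.92, 7.97 and 8.07 on the fibrin arrays, all below 8.08, 8.16 and 8.12 on the collagen arrays. With TNF the groups overlapped. The tetraspanin gene Cd53 was lower in fibrin without TNF (-0.38 ± 0.11, adjusted p = 0.0454) and had a difference of -0.31 ± 0.11 with TNF (adjusted p = 0.107). A shift of Ptprc as large as that of Laptm5 lies outside its interval in both comparisons.

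One of the ITAM adaptors passed in both comparisons. Tyrobp (DAP12), the partner of TREM receptors, lay at 8.27, 8.37 and 8.48 on the fibrin control arrays, against 9.10, 9.13 and 9.07 on the collagen control arrays, a difference of -0.73 ± 0.09 (1.65-fold lower, adjusted p = 1.51e-04). With TNF it lay at 8.34, 8.43 and 8.25 on the fibrin TNF arrays, against 9.02, 8.77 and 9.08 on the collagen TNF arrays (-0.62 ± 0.09, adjusted p = 7.82e-04). The groups did not overlap in either comparison. Fcer1g, the common gamma chain of Fc receptors, did not pass (-0.21 ± 0.11, 95% confidence interval -0.44 to 0.03, adjusted p = 0.271 without TNF, and -0.20 ± 0.11, adjusted p = 0.299 with TNF). Fcgr1a, the high-affinity IgG receptor, had differences of -0.07 and -0.14 and did not pass either. Fcgr2b, the inhibitory IgG receptor that endothelium and B cells also express, had a difference of 0.32 ± 0.13 without TNF (adjusted p = 0.161) and was lower in fibrin with TNF (-0.50 ± 0.13, adjusted p = 0.0387).

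Of 4 genes used to name macrophages, 1 passed in both comparisons. Lyz2, lysozyme of macrophages and neutrophils, lay at 10.33, 10.53 and 10.43 on the fibrin control arrays, against 10.84, 10.88 and 10.73 on the collagen control arrays (-0.39 ± 0.08, adjusted p = 0.00688). With TNF it lay at 10.38, 10.47 and 10.38 on the fibrin TNF arrays, against 11.33, 11.10 and 11.25 on the collagen TNF arrays (-0.82 ± 0.08, 1.76-fold lower, adjusted p = 3.16e-05). Adgre1, which encodes the macrophage antigen F4/80 (EMR1), had a difference of the other sign, 0.52 ± 0.19 without TNF and 0.50 ± 0.19 with TNF, without passing (adjusted p = 0.105 and 0.131). It lay at 10.17, 10.16 and 10.44 on the fibrin control arrays, against 9.20, 10.11 and 9.92 on the collagen control arrays, whose first replicate stood apart. With TNF it lay at 10.25, 10.50 and 10.36 on the fibrin arrays, against 9.95, 9.67 and 9.98 on the collagen arrays. The groups of Adgre1 did not overlap in either comparison. Aif1 (IBA1), a cytoskeletal protein of macrophages, had differences of -0.23 and -0.09, and Cd68 (macrosialin) of -0.16 and -0.05, none of which passed.

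Of the transcription factors, Maf, which takes part in resident macrophage identity and is expressed in other cell types too, was lower in fibrin both without TNF (-0.69 ± 0.12, adjusted p = 0.00177) and with it (-0.75 ± 0.12, adjusted p = 0.00141). Spi1 (PU.1) had differences of -0.07 ± 0.16 (95% confidence interval -0.41 to 0.27) and -0.18 ± 0.16 (-0.53 to 0.16). Irf8, a lineage factor of monocytes and dendritic cells that interferon induces, had differences of -0.29 ± 0.10 (adjusted p = 0.103) and -0.18 ± 0.10 (adjusted p = 0.336). Neither passed in either comparison.

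Genes of apoptotic cell uptake are also expressed outside the myeloid lineage. Gas6, a ligand of the TAM receptors, was lower in fibrin without TNF (-0.24 ± 0.07, adjusted p = 0.0388) and with it (-0.47 ± 0.07, 1.39-fold lower, adjusted p = 6.48e-04). Its receptor gene Axl was higher in fibrin without TNF (0.33 ± 0.06, adjusted p = 0.00515) and lay at 11.13, 11.16 and 11.08 on the fibrin TNF arrays, against 11.10, 11.06 and 11.12 on the collagen TNF arrays (0.03 ± 0.06, adjusted p = 0.848). Mertk, the TAM receptor of macrophages, had differences of 0.09 and -0.02 and did not pass. The lysosomal glycoprotein gene Gpnmb was lower in fibrin, at 11.30, 11.49 and 11.48 on the fibrin control arrays, against 12.05, 12.07 and 12.09 on the collagen control arrays (-0.65 ± 0.07, adjusted p = 8.59e-05), and by -0.43 ± 0.07 with TNF (adjusted p = 0.00295).

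Ncf1 (p47phox), the organizing subunit of the NADPH oxidase in the cytosol, was higher in fibrin, by 0.43 ± 0.09 without TNF (adjusted p = 0.00993) and 0.33 ± 0.09 with TNF (adjusted p = 0.0482). It lay at 7.12, 7.03 and 6.99 on the fibrin control arrays, against 6.68, 6.68 and 6.50 on the collagen control arrays. Cybb (gp91phox), the membrane subunit that carries the electrons, did not share this difference without TNF (0.04 ± 0.09, adjusted p = 0.839) and was lower in fibrin with TNF (-0.67 ± 0.09, adjusted p = 3.97e-04). The calprotectin subunit S100a9 lay at 5.97, 4.98 and 5.36 on the fibrin control arrays, against 4.65, 4.60 and 4.62 on the collagen control arrays (0.81 ± 0.19, adjusted p = 0.0158), and its difference with TNF was 0.58 ± 0.19 (adjusted p = 0.0903). S100a9 was low, in the lowest 29.2% of genes by mean level. Its partner S100a8 gave log2 levels of 2.47 to 3.05 on all 12 arrays, in the lowest 2.89% of genes by mean level, so nothing is read from it. Siglec1 (CD169), a receptor that interferon induces, was higher in fibrin without TNF (0.46 ± 0.13, adjusted p = 0.0429), with a difference of -0.22 ± 0.13 with TNF.

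**Figure D2:**
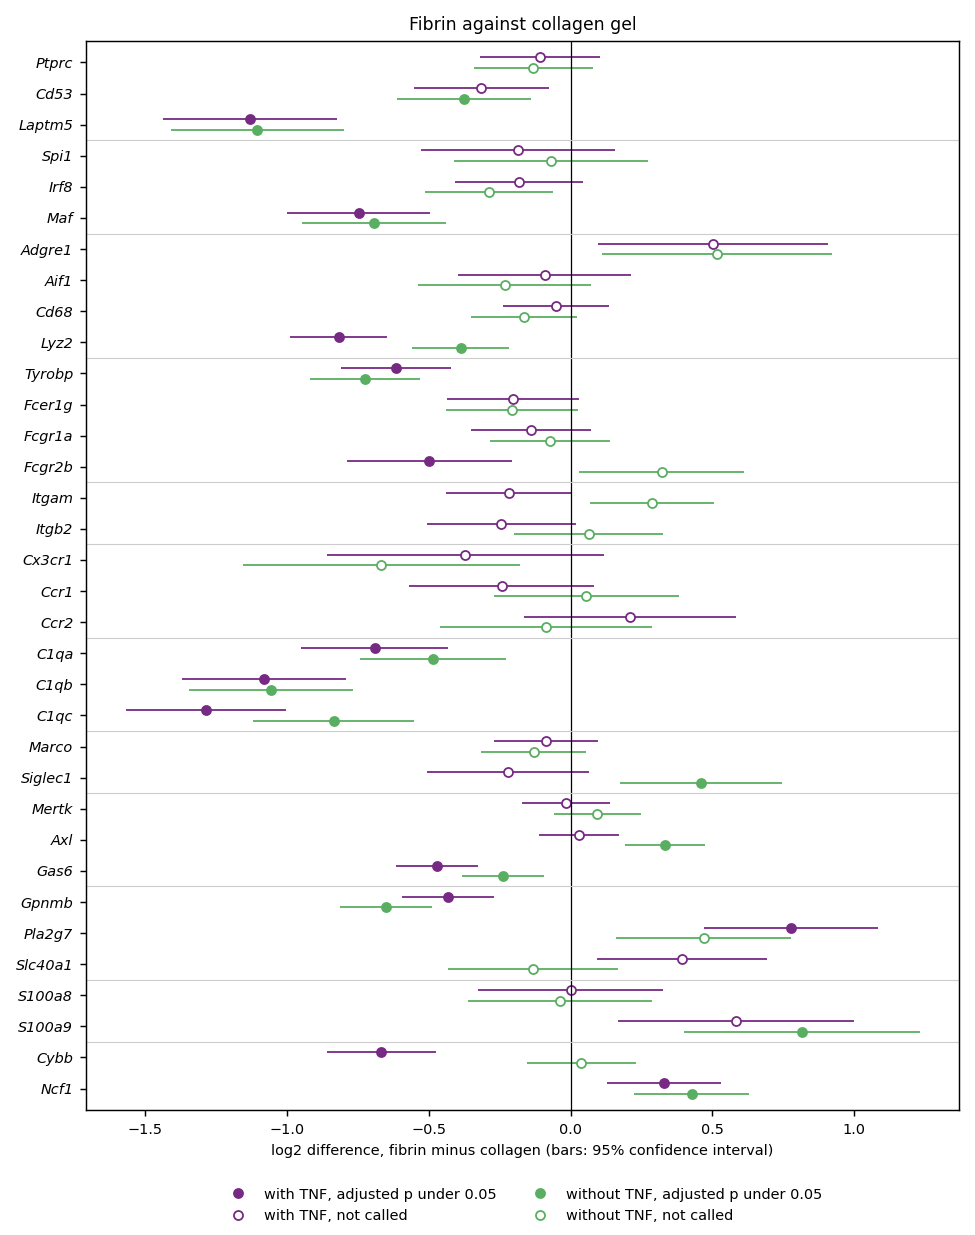
Log2 difference between fibrin and collagen for each of the 34 members, with TNF (purple, upper of each pair) and without TNF (green, lower), where bars are 95% confidence intervals of the limma fit, filled points have an adjusted p under 0.05, and grey lines part the functional groups. The C1q subunits, Laptm5, Tyrobp, Maf, Lyz2, Gas6 and Gpnmb lie left of 0 in both comparisons, while Cybb, Fcgr2b, Siglec1 and Axl are called in 1 comparison only.

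Some of these calls were lost in fits without 1 array, which also have fewer arrays to test with. Without TNF, those of Cd53, C1qa, Siglec1, Gas6 and S100a9 were lost at adjusted p of 0.0530 to 0.170: Cd53 without any 1 of the 6 arrays, C1qa without collagen control replicate 2 or 3 or fibrin control replicate 1 or 2, Siglec1 without collagen control replicate 1 or 3 or any fibrin control array, Gas6 without collagen control replicate 2 or 3 or any fibrin control array, and S100a9 without collagen control replicate 2. With TNF, Fcgr2b was lost without any 1 of the 6 arrays but fibrin TNF replicate 3, and Ncf1 without collagen TNF replicate 2 or 3 or fibrin TNF replicate 1 or 3, at adjusted p of 0.0768 to 0.177. Differences in the fits that lost the call kept their sign, at -0.42 to -0.30 for Cd53, -0.47 to -0.39 for C1qa, 0.38 to 0.49 for Siglec1, -0.26 to -0.20 for Gas6 and 0.80 for S100a9 without TNF, and -0.53 to -0.42 for Fcgr2b and 0.26 to 0.34 for Ncf1 with TNF.

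Markers of resident macrophages that are not among the 34 genes were in part lower in fibrin too. Of 12 measured, 0 were higher and 8 lower without TNF (66.7% called, against 10.5% of all genes, median difference -1.34), and 0 and 8 with TNF (66.7%, against 8.19%, median -1.14). Without TNF, F13a1 (a clotting factor subunit of macrophages) differed by -2.24, Cd163 (the hemoglobin scavenger receptor) by -2.19, Mrc1 (the mannose receptor) by -1.65 and Trem2 (a receptor that signals through Tyrobp) by -1.40. Csf1r, the receptor of the growth factor that macrophages depend on, differed by -0.82. The other 4 did not pass without TNF, with Hmox1 (heme oxygenase) at 0.30, Ms4a7 at 0.26, Cd14 at 0.05 and Vsig4 (a complement receptor) at -0.14. Vsig4 was dim, in the lowest 7.79% of genes by mean level. The mean log2 level over the 12 was 7.19 to 7.39 on the fibrin TNF arrays and 7.38 to 7.66 on the fibrin control arrays, against 8.22 to 8.54 on the collagen TNF arrays and 8.47 to 8.60 on the collagen control arrays. The part of these genes in the members' differences was not tested.

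Markers of other leukocyte types are given against the same shares of all genes, 10.5% called without TNF and 8.19% with it. Of 16 neutrophil markers 2 were higher and 0 lower in fibrin without TNF, namely Lcn2 (2.88) and Mmp9 (1.74), which other cells of an inflamed vessel wall also make. The granule genes Mpo and Elane did not pass, with mean levels of 4.60 and 5.23 in fibrin control against 4.72 and 5.22 in collagen control. Of 17 markers of T, NK and B cells 0 were higher and 1 lower both without and with TNF. That gene was Cd4 (-1.17 and -1.18), which rat macrophages carry too, while the T cell gene Cd3e lay at 3.91 in fibrin control against 4.05 in collagen control. Of 10 mast cell markers 0 were higher and 1 lower without TNF, and 1 and 0 with it, in each case Kit (-0.44 and 0.56). Of 8 dendritic cell markers Cd83 was lower without TNF (-0.86) and 0 passed with it. Among cells of the wall without TNF, 4 of 9 smooth muscle markers (Tagln by -0.81) and 1 of 10 endothelial markers (Cldn5 by -0.50) were lower in fibrin, and of 11 fibroblast markers 2 were higher and 3 lower. With TNF 0 of the smooth muscle and 0 of the endothelial markers passed, and of the fibroblast markers 1 was higher and 3 lower.

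Interferon-response genes were higher in fibrin. Of 18 measured, 17 were higher in fibrin without TNF (94.4%, against 5.35% of all genes, median difference 3.62). With TNF 18 were higher (100%, against 4.55% of all genes, median 2.71). Their mean log2 level over the list was 10.00 to 10.59 on the fibrin TNF arrays and 10.10 to 10.24 on the fibrin control arrays, against 7.80 to 8.28 on the collagen TNF arrays and 6.81 to 7.49 on the collagen control arrays. Among members known to respond to interferon, the differences without and with TNF were 0.46 and -0.22 for Siglec1, -0.29 and -0.18 for Irf8, and -0.07 and -0.14 for Fcgr1a. The part of the interferon-response genes in the members' differences was not tested.

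**Figure D3:**
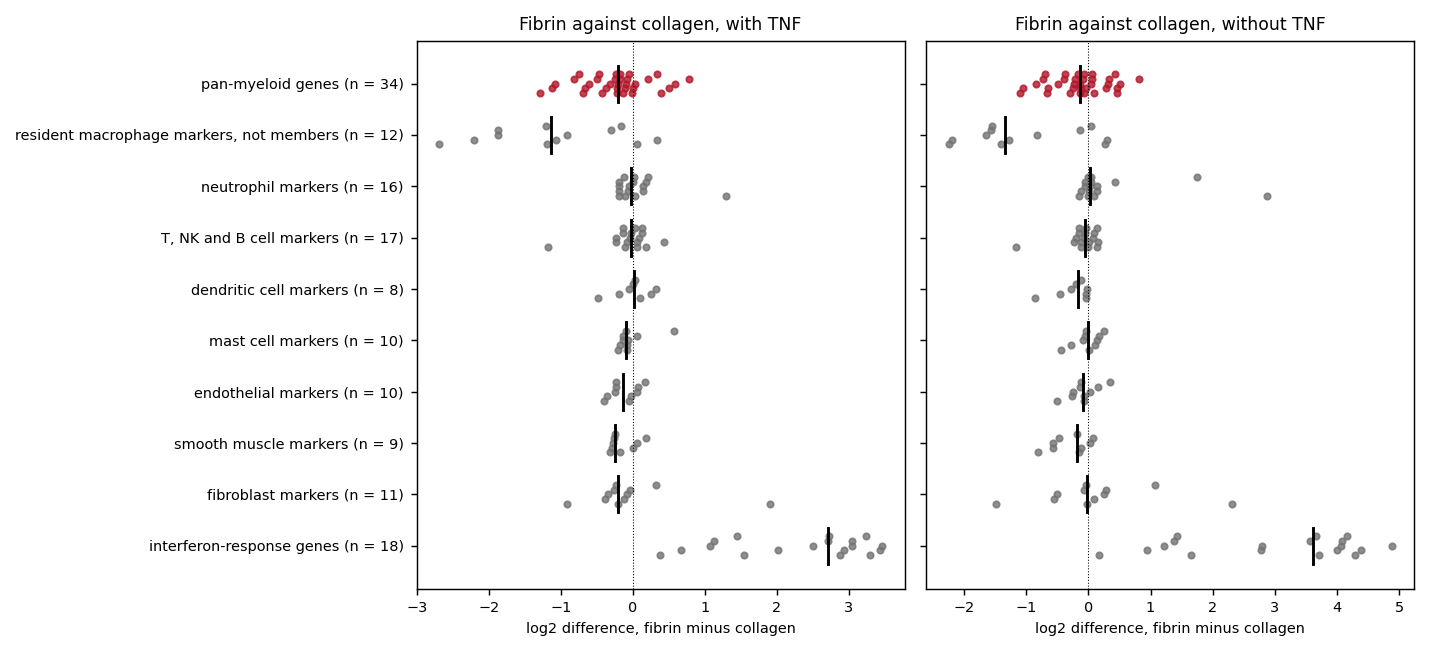
Log2 difference between fibrin and collagen with TNF (left) and without TNF (right) for the 34 pan-myeloid genes (red) and for lists of other markers (grey), where each point is a gene, vertical offsets only separate points, and black bars are list medians. The medians of the pan-myeloid genes (-0.21 and -0.13) lie near 0, those of 12 resident macrophage markers lie at -1.14 and -1.34, and those of 18 interferon-response genes at 2.71 and 3.62.

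Further genes of the pathways the members belong to moved one by one. Their counts stand beside 10.5% of all genes called without TNF and 8.19% with it. Of 16 genes of ITAM and Src-family signalling, 2 were higher and 2 lower in fibrin without TNF: the adaptor Pik3ap1 (1.46 ± 0.10) and the kinase Fgr (1.07 ± 0.10) were higher, and Trem2 and the kinase Syk (-0.29 ± 0.07) lower. Of 4 other oxidase subunits Rac2, the small GTPase of leukocytes, was higher in fibrin without (0.62 ± 0.17) and with TNF (0.77 ± 0.17), and the other 3 did not pass. Of 14 other leukocyte integrin and trafficking genes, 2 were higher and 2 lower without TNF, among them Itgal (the LFA-1 alpha chain, 1.45 ± 0.17) and Lcp1 (L-plastin, -0.76 ± 0.13). Of 5 other Fc and complement receptors, C3ar1, the C3a receptor (1.06 ± 0.14), and Fcgr3a (0.58 ± 0.16) were higher and 0 lower without TNF. With TNF 2 were higher and 1 lower, the latter Cr1l (-0.23 ± 0.06). Of 8 genes of the colony-stimulating factor axis, 3 were higher and 1 lower without TNF, with Csf3 at 3.02 ± 0.30 and Csf2 at 0.65 ± 0.12. Csf2 was dim, in the lowest 14.7% of genes by mean level. Of 4 other genes of apoptotic cell uptake Lgals3 (galectin-3, -0.76 ± 0.11) alone passed without TNF, and with TNF Pros1 was lower too (-0.28 ± 0.08). Of 14 lysosomal genes 1 was higher and 2 lower without TNF, by 0.32 at most.

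TNF was then compared with control within each gel. In collagen, the oxidase subunit gene Cybb, the receptors Fcgr2b, Siglec1 and Axl, the integrin chain Itgam, lysozyme and the lipid enzyme Pla2g7 rose, while Maf, the chemokine receptor Ccr1 and Gpnmb fell. That is 7 members higher and 3 lower (29.4%), against 6.37% of all genes called (3.27% higher and 3.1% lower), with a median difference of 0.01 over the 34 and 0.00 over all genes. Without collagen TNF replicate 2, the array that was lowest for most members, that median was 0.10. In fibrin Pla2g7 and Cd68 rose, and Maf, Ccr1, C1qc and Gas6 fell, or 2 higher and 4 lower (17.6%), against 3.13% of all genes called (1.65% higher and 1.47% lower), with medians of -0.03 and 0.01. Among the 9549 genes left without the third of lowest mean, 289 rose and 301 fell in fibrin, and 569 and 584 in collagen. Of the 29 members among them, 2 rose and 3 fell in fibrin, and 8 and 2 in collagen. TNF and control arrays did not overlap for 7 members in fibrin, against 18.1% of all genes, and for 20 in collagen, against 26.5%. The gels share no array in these comparisons, but they share the fit's estimate of each gene's spread. Overlaps over all genes are not given here. Higher in both was 1 gene, of 2 in fibrin and 7 in collagen (14.3%), and lower in both were 2, of 4 in fibrin and 3 in collagen (66.7%).

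The genes that moved in both gels were Pla2g7, Maf and Ccr1. Pla2g7, the secreted lipoprotein-associated phospholipase A2 that clears platelet-activating factor, lay at 9.26, 9.27 and 9.53 on the fibrin TNF arrays, against 8.24, 8.07 and 8.29 on the fibrin control arrays (1.15 ± 0.14, 2.22-fold higher, adjusted p = 8.49e-04). In collagen it lay at 8.30, 8.47 and 8.96 on the TNF arrays, against 7.81, 7.66 and 7.72 on the control arrays (0.84 ± 0.14, 1.80-fold higher, adjusted p = 0.00293). Its level on every TNF array was above every control array of the same gel. It was higher in fibrin than in collagen with TNF (0.78 ± 0.14, adjusted p = 0.00402), and missed the threshold without TNF (0.47 ± 0.14, adjusted p = 0.0541).

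Maf lay at 7.34, 7.85 and 7.46 on the fibrin TNF arrays, against 8.18, 8.31 and 8.41 on the fibrin control arrays (-0.75 ± 0.12, adjusted p = 0.00369). In collagen it lay at 8.33, 8.19 and 8.38 on the TNF arrays, against 8.98, 8.91 and 9.09 on the control arrays (-0.69 ± 0.12, 1.62-fold lower, adjusted p = 0.00295). It was thus the one member called in all 4 comparisons between groups, and the untreated fibrin and TNF-treated collagen groups had the same mean (8.30 ± 0.11 and 8.30 ± 0.10, SD, n = 3). Ccr1, a receptor of inflammatory CC chemokines, fell in fibrin to between 3.88 and 4.09 on the 3 TNF arrays, against 5.03, 4.95 and 4.70 on the control arrays (-0.90 ± 0.15, 1.86-fold lower, adjusted p = 0.00545). In collagen it fell by 0.60 on the log2 scale (adjusted p = 0.0328). Its levels were in the lowest 21.0% of genes. Ccr2, the monocyte receptor for Ccl2, was also dim, and its differences of -0.26 ± 0.17 in fibrin and -0.56 ± 0.17 in collagen did not pass, nor did those of the fractalkine receptor Cx3cr1 (-0.15 ± 0.23 in fibrin and -0.45 ± 0.23 in collagen).

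Among members called in collagen and not in fibrin, Cybb had the smallest adjusted p. It lay at 11.09, 10.87 and 11.08 on the collagen TNF arrays, against 10.10, 10.17 and 10.26 on the collagen control arrays, a rise of 1.79-fold (0.84 ± 0.09, adjusted p = 9.07e-05). In fibrin it lay at 10.36, 10.46 and 10.23 on the TNF arrays, against 10.10, 10.32 and 10.22 on the control arrays, which overlapped (0.13 ± 0.09, adjusted p = 0.523). Its oxidase partner Ncf1 had differences of 0.13 ± 0.09 in fibrin and 0.23 ± 0.09 in collagen, which did not pass.

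Fcgr2b rose 1.85-fold in collagen, to 9.10, 8.91 and 8.91 on the TNF arrays, against 8.32, 8.18 and 7.74 on the control arrays (0.89 ± 0.13, adjusted p = 0.00132). Itgam, the alpha chain of the complement receptor Mac-1 (CD11b), rose to 7.78, 7.46 and 7.69 on the TNF arrays, against 6.98, 7.15 and 7.30 on the control arrays (0.50 ± 0.10, adjusted p = 0.00942). The integrin's beta chain gene Itgb2 had a difference of 0.35 ± 0.12 with no overlap of the arrays, and did not pass (adjusted p = 0.118). Lyz2 rose (0.41 ± 0.08, adjusted p = 0.00718), as did Siglec1 (0.61 ± 0.13, adjusted p = 0.0145) and Axl (0.29 ± 0.06, adjusted p = 0.0173), while Gpnmb fell (-0.31 ± 0.07, adjusted p = 0.0274). In fibrin the same genes had differences of 0.07 (Fcgr2b), -0.00 (Itgam), -0.02 (Lyz2), -0.07 (Siglec1), -0.01 (Axl) and -0.09 (Gpnmb), and none passed. In fibrin and in collagen, the differences of Ptprc (-0.06 and -0.08), Spi1 (-0.04 and 0.08), Fcer1g (0.01 and 0.00) and Tyrobp (-0.03 and -0.14) did not pass.

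Among members called in fibrin and not in collagen, Cd68 rose to 10.13, 9.96 and 10.06 on the TNF arrays, against 9.65, 9.67 and 9.66 on the control arrays (0.39 ± 0.09, adjusted p = 0.0276). Its difference in collagen was 0.28 ± 0.09, with no overlap of the arrays and an adjusted p of 0.0799. C1qc fell (-0.61 ± 0.13, adjusted p = 0.0248), as did Gas6 (-0.40 ± 0.07, adjusted p = 0.00532), and C1qa and C1qb had differences of -0.24 and -0.36 that did not pass.

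**Figure D4:**
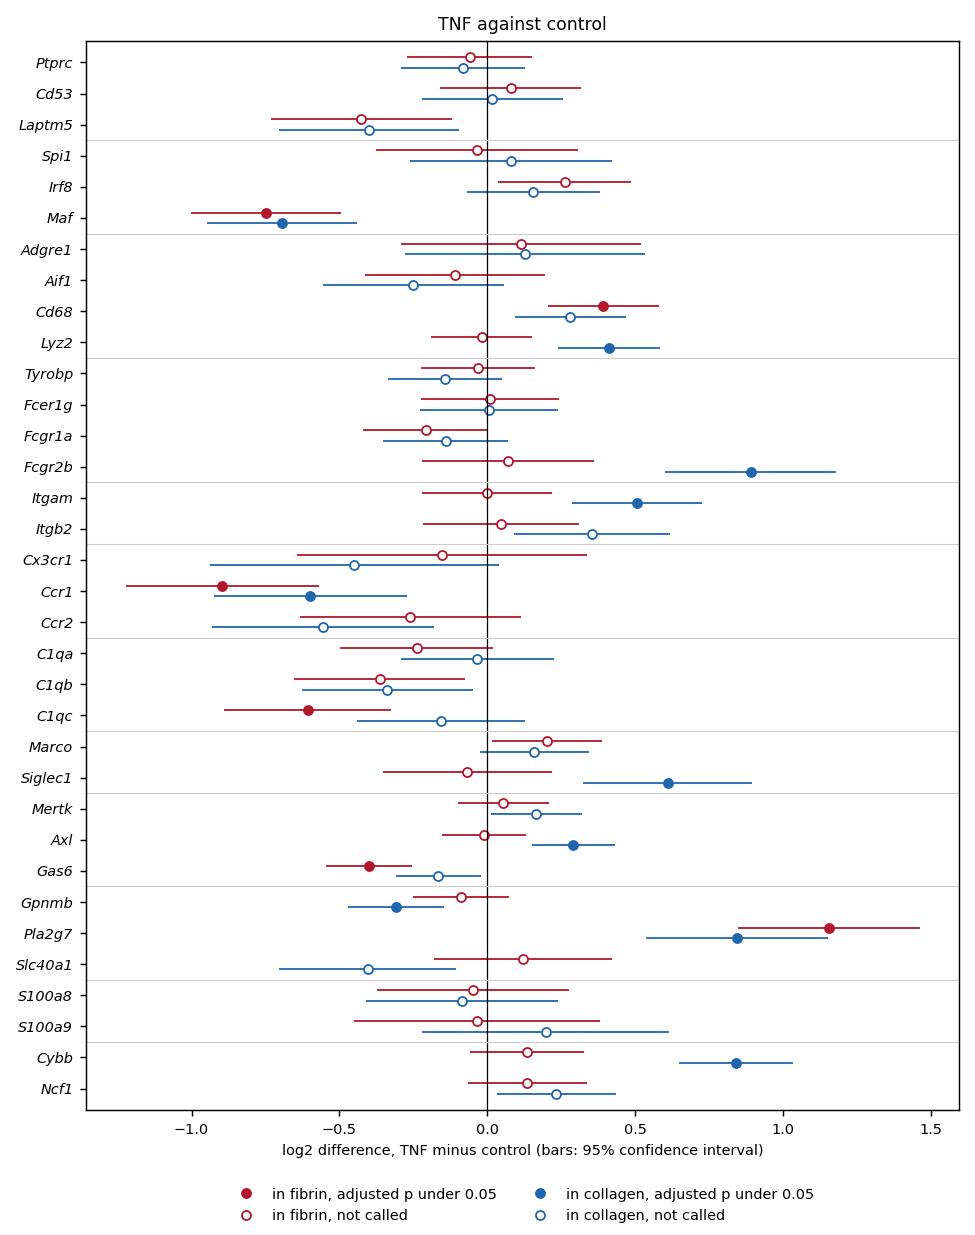
Log2 difference between TNF and control for each of the 34 members in fibrin (red, upper of each pair) and in collagen (blue, lower), where bars are 95% confidence intervals of the limma fit, filled points have an adjusted p under 0.05, and grey lines part the functional groups. Pla2g7 lies right of 0 and Maf and Ccr1 left of 0 in both gels, while Cybb, Fcgr2b, Itgam, Lyz2, Siglec1 and Axl are called in collagen only.

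Several TNF calls were lost in fits without 1 array. In collagen these were Ccr1 without TNF replicate 2 or 3 or control replicate 2 or 3, Siglec1 without TNF replicate 1 or 3 or control replicate 1 or 3, Axl without TNF replicate 1 or 3 or control replicate 1, and Gpnmb without any 1 array but TNF replicate 3 (adjusted p of 0.0532 to 0.132). In fibrin they were Cd68 without any 1 array but TNF replicate 2, and C1qc without TNF replicate 1 or 3 or control replicate 2 or 3 (adjusted p of 0.0635 to 0.113). In those fits the differences were -0.64 to -0.42 for Ccr1, 0.49 to 0.57 for Siglec1, 0.26 to 0.29 for Axl and -0.34 to -0.25 for Gpnmb in collagen, and 0.35 to 0.40 for Cd68 and -0.59 to -0.50 for C1qc in fibrin. Blocking on replicate number inside each gel, Siglec1 (adjusted p = 0.0599) and Gpnmb (0.0517) in collagen and Cd68 in fibrin (0.0670) lost their calls, and Cx3cr1 (0.0337) and Slc40a1, the iron exporter ferroportin (0.0200), passed as lower in collagen.

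Counts of genes outside the 34 stand beside 3.13% of all genes called with TNF in fibrin and 6.37% in collagen. Fgr rose in fibrin (0.44 ± 0.10) and in collagen (1.23 ± 0.10), and Syk in fibrin (0.31 ± 0.07), out of 16 signalling genes. Of 12 resident macrophage markers 1 rose (Cd14, the lipopolysaccharide co-receptor, 0.55) and 1 fell (F13a1, -1.05) in collagen, and 0 rose and 1 fell in fibrin (F13a1, -0.68). Of the colony-stimulating factor axis Il34, a ligand of Csf1r, and Csf2rb rose in collagen (0.91 ± 0.10 and 0.80 ± 0.17), and Csf1 in fibrin (0.62 ± 0.08). Among other myeloid transcription factors Runx1 and Nr1h3 (the oxysterol receptor LXR-alpha) rose in collagen (0.44 and 0.30) and Irf5 in fibrin (0.43), of 11 measured. Lgals3 and Pros1, a ligand of TAM receptors, fell in fibrin (-0.62 and -0.34). Of 18 interferon-response genes 12 rose and 0 fell in collagen (median 0.91), and 0 rose and 0 fell in fibrin (median 0.18) by limma, where 0 had an unadjusted p under 0.05. Of 17 markers of T, NK and B cells 0 passed in either gel by limma, with 2 in fibrin and 1 in collagen at an unadjusted p under 0.05. Mmp9 (2.23) and Lcn2 (1.32) rose in collagen among the neutrophil markers. The part of these lists in the members' changes was not tested.

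Whether TNF acted differently in the gels was tested as the difference of its effects, fibrin minus collagen. Of the 34 members 0 had a higher and 1 a lower effect in fibrin (2.94% called), against 1.24% of all genes called (0.37% higher and 0.866% lower), with medians of -0.04 and 0.01. That gene was Cybb, with a difference of -0.70 ± 0.13 (95% confidence interval -0.98 to -0.43, adjusted p = 0.0166). The other genes called with TNF in collagen only did not pass this test: Fcgr2b (-0.82 ± 0.19, adjusted p = 0.0618), Lyz2 (-0.43 ± 0.11, adjusted p = 0.0965), Siglec1 (-0.68 ± 0.19, adjusted p = 0.119), Itgam (-0.51 ± 0.14, adjusted p = 0.128), Axl (-0.30 ± 0.09, adjusted p = 0.156) and Gpnmb (0.22 ± 0.11, adjusted p = 0.412) are therefore not shown to respond differently in the gels. Nor did the genes called with TNF in fibrin only pass it, with Cd68 at 0.11 ± 0.12 (adjusted p = 0.771), C1qc at -0.45 ± 0.18 (adjusted p = 0.319) and Gas6 at -0.23 ± 0.09 (adjusted p = 0.310). Under the same replicate block Fcgr2b passed as well (adjusted p = 0.0417), which made 2 members. For Pla2g7, Maf and Ccr1 the differences were 0.31 ± 0.20, -0.05 ± 0.17 and -0.30 ± 0.21, with 95% confidence intervals of -0.13 to 0.74, -0.41 to 0.31 and -0.76 to 0.16.

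In total 20 members were called in at least 1 of the 5 comparisons and 14 in none. The 14 were Ptprc, Spi1, Irf8, Adgre1, Aif1, Fcer1g, Fcgr1a, Itgb2, Cx3cr1, Ccr2, Marco, Mertk, Slc40a1 and S100a8. They include the gene of the leukocyte antigen CD45, the lineage factor PU.1 and the common Fc receptor chain, along with the bacterial scavenger receptor Marco, whose levels of 4.78 to 5.24 were low on every array. For Spi1 the 95% confidence intervals of the 4 differences between groups reached from -0.53 to 0.42, and for Ptprc from -0.34 to 0.15. With 3 arrays a group these genes are therefore not shown to be unchanged.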

How the data were processed

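Expression was measured in 12 cultures of rat aortic rings on Affymetrix whole-transcript arrays labelled from 200 ng of total RNA, per the labels' protocols. The deposited values were taken as log2 levels per probe set from their range (1.44 to 14.07), since how the authors scaled, summarised, background-corrected and normalized them is unstated in the labels and files used here (not given in the sources). A tool list from the submitters' processing notes holds limma, with no version. Column medians were 5.89 to 5.98. Of 27342 probe sets, 15097 named 1 gene, 323 several and 11922 none, and the probe set of highest mean over 12 arrays stood for each of 14324 genes. RefSeq identifiers matched 15067 of the single-gene probe sets, and 0 symbols changed.

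The 12 arrays entered a single limma fit (version 3.58.1, R 4.3.3) with a mean for each group and no block, using lmFit, eBayes and two-sided tests, with Benjamini-Hochberg adjustment within each of 5 comparisons. The median standard error was 0.09 for a difference between groups and 0.13 for the difference of TNF effects, so the number of arrays limits the precision. Simulated data held 14324 genes with 200 changed, and arrays were drawn independently. For TNF in collagen, 71% of genes changed by 0.5 (log2) and 99% of those changed by 1 were recovered. For the difference of effects these shares were 29% and 88%. False calls made up 6.08% and 1.68% of the calls in the 2 simulations, and recovery in the real data may differ. Deviations from group means correlated at 0.13 to 0.14 in collagen and 0.14 to 0.25 in fibrin between arrays of the same number with and without TNF. Numbers may thus pair samples within a gel, which the titles do not say. The reported tests took no such pairing. Between gels, deviations on arrays of the same number correlated at 0.08 to 0.23 without TNF and 0.03 to 0.14 with it. No pairing was taken there either. No batch is labelled.

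All 34 members could be named. From each other list, the rule took at most 6 called genes by adjusted p and at most 3 uncalled ones by level per comparison. Mpo, Elane, Cd3e, Myh11 and Cdh5 were picked as defining markers after values were seen, and Vsig4 was named outside the rule. Members and lists were chosen with earlier results of these data known. The alternatives changed the normalization (quantile, or centring on the median), dropped the dimmest 33.3% of genes, restricted the fit to the groups compared, used a trended and robust prior or array weights, took every probe set or the mean of a gene's probe sets, added the replicate block, or left out each array in turn.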

Additional observations from a re-analysis of the deposited data

Results flagged for a closer look

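The TNF effect differed between fibrin and collagen, by limma's test of the difference itself, for 1 member and 10 other genes of the lists. Cybb had an effect of 0.13 in fibrin and 0.84 in collagen (log2), a difference of -0.70 ± 0.13 (adjusted p = 0.0166) that held in all 20 alternatives (-0.78 to -0.64). Among genes of the other lists the effect was lower in fibrin for Mmp9 (-1.71), Lcn2 (-1.58), Fbln1 (-1.20), Fgr (-0.79), Pdgfra (-0.65) and Nr1h3 (-0.46). It was higher in fibrin for Cd83 (1.18), Kit (1.01), Csf1 (0.66) and Mfap5 (0.57), where for Mfap5 higher means a smaller fall (-0.72 in fibrin and -1.29 in collagen).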

How the results depend on the processing

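Of 44 calls of members, 31 held under every alternative, 13 were lost under at least 1 and 0 reversed, and of 126 results not called 19 passed under at least 1 alternative and 44 changed sign while not called. For the difference of the TNF effect 1 member was called as reported, 2 after median centring, 3 without the third of genes of lowest mean, 4 with a trended and robust prior, 2 with the replicate block, and 1 to 2 without 1 array. Over all genes it gave 177 calls as reported, 294 without the third of genes of lowest mean, 339 with the trended and robust prior and 103 to 246 without 1 array. Without 1 array TNF gave 568 to 769 calls in collagen and 237 to 539 in fibrin, where fitting only the groups compared gave 230 in place of 448, and fibrin against collagen with TNF gave 727 to 1196. The replicate block changed no other call of the TNF comparisons than those given above. Between the gels, where it is also not known whether numbers pair samples, the block called 14 members without TNF and 13 with TNF. Of these, 12 and 12 were among those called without the block. Cd53 and Siglec1 without TNF and Fcgr2b with TNF were lost, and Cx3cr1 and Pla2g7 without TNF and Slc40a1 with TNF gained. The cause of these changes was not tested.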
